A study of Mus musculus with 6 samples.

Results

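Stefins and cystatins are inhibitors of papain-like cysteine proteases, the enzyme family that holds most cathepsins. The genes described here are 9 of the 47729 genes in the deposited count table, chosen by name. Of these, 6 are stefin A genes of one cluster on mouse chromosome 16 (Stfa1, Stfa2, Stfa2l1, Stfa3, BC100530 and BC117090), and the other 3 are Cstb (stefin B, also called cystatin B), Cst6 (cystatin M, also called cystatin E/M) and Cst3 (cystatin C). RNA was sequenced from mouse epidermis after AKBA gel (3 libraries) or control gel (3 libraries), AKBA being a boswellic acid derivative from the resin of Boswellia trees. All mice were wild type on a C57BL/6 background, and both groups had a gel. The control gel libraries are also described as IMQ, an abbreviation left unexplained, and whether either group had a further treatment is not stated. Age is not stated, nor whether each library stands for its own animal, so the spread behind each p-value is that among the 6 libraries and may be technical.

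Stefins are small proteins that stay in the cytosol and block cathepsins that escape from lysosomes, whereas cystatin M and cystatin C are secreted. In human skin, cystatin A is a component of the cornified envelope, the protein shell of the outermost keratinocytes. In mice, loss of Cst6 leads to a failing skin barrier, and in the described pathway cystatin M restrains cathepsin L and legumain and, through them, the activation of transglutaminase 3, which cross-links envelope proteins. The mouse genome holds several copies of stefin A, which mouse neutrophils and other myeloid cells also express.

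The stefin A cluster is a set of close copies, and the promoters of its members show how close. The 6 members lie between positions 36156811 and 36455392 of chromosome 16 (GRCm38, GENCODE M21 annotation), a span of 298.6 kb. RefSeq promoter windows of 250 bases before to 50 bases after the annotated start (GRCm38.p6) were found for 6 of the 9 members, 5 of them in the cluster. The windows of the most abundant pair (Stfa3 and BC100530) and of the pair with the largest fold changes among tested members (Stfa1 and Stfa2) are printed 5′ to 3′, with capitals for the 3 longest runs of letters common to all 5 stefin A windows.
Stfa1 (chr16:36276898-36277197, strand +): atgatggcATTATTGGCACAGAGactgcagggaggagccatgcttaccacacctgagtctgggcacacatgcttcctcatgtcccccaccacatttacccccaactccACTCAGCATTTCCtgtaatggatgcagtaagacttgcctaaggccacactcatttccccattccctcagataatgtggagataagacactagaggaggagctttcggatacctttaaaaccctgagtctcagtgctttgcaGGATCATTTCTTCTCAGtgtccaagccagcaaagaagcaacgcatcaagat
Stfa2 (chr16:36408314-36408613, strand -): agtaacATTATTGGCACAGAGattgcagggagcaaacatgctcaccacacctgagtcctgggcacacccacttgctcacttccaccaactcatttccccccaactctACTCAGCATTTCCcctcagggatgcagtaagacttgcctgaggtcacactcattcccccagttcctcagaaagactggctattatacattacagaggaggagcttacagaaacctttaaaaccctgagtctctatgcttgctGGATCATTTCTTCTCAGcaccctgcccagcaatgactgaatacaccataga
Stfa3 (chr16:36455343-36455642, strand -): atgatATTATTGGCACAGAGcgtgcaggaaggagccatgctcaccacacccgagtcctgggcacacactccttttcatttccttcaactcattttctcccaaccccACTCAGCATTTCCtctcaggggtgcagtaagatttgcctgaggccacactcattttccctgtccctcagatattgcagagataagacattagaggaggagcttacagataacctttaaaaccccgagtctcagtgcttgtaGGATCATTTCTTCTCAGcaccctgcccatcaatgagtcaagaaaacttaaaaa
BC100530 (chr16:36367521-36367820, strand -): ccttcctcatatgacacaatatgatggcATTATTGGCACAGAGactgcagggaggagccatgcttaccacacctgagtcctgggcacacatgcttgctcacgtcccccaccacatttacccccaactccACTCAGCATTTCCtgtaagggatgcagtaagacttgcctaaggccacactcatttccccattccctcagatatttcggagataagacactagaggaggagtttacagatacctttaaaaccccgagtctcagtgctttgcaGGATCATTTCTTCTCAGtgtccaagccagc
The longest run, GGATCATTTCTTCTCAG, has 17 bases and sits at the annotated start of Stfa1 and Stfa2 (its first base is at -1 with the start base as 0), at -3 in Stfa3 and at 20 in BC100530. It was found, on either strand, in 6 of 32817 promoter windows of the genome (0.0183%), all 6 of stefin A genes. The second run, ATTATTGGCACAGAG, was found in 5 windows (0.0152%), those of the 5 members, and the third, ACTCAGCATTTCC, in 10 windows (0.0305%). Whole windows were 77.7% to 91.7% identical between stefin A members, with 89.7% for Stfa1 and BC100530. Identity with the window of Cst3 was 40.7% to 47%. The letters TGANTCA, the motif known for AP-1 factors (searched on both strands), occurred in the window of Stfa3 only among the 6 members, against 7.81% of all windows.

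Coding sequences fell into groups of close copies, compared by the most alike annotated coding sequences of each 2 genes. Stfa1 and BC100530 had 98% identical coding bases, BC100530 and BC117090 95.2%, and Stfa1 and BC117090 93.5%. Stfa2 and Stfa2l1 had 96.5%, whereas Stfa1 and Stfa2 shared 74.7% and Stfa1 and Stfa2l1 73.4%. Stfa3 was 78.2% to 81.7% identical to the other members of the cluster. Of the 50-base stretches in the transcripts of BC100530, 48.9% also occurred in transcripts of another gene, and the share was 33.7% for BC117090, 24.6% for Stfa2l1, 22.5% for Stfa1 and 15.9% for Stfa2. It was 0% for Stfa3, Cst6, Cstb and Cst3. How reads shared between copies were assigned is not stated, so the split between Stfa1, BC100530 and BC117090, and between Stfa2 and Stfa2l1, is uncertain. BC100530 also overlaps the antisense gene Gm15845, and without strand information their reads cannot be told apart.

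The 6 libraries held 19066045 to 22760432 counts, and 3 counts correspond to 0.128 to 0.159 CPM (TMM-normalised read counts on a common scale). By edgeR's quasi-likelihood test with Benjamini-Hochberg adjustment over the 17023 genes tested, no gene passed an adjusted p of 0.05 in either direction (0%). At an unadjusted p under 0.05, 1193 genes were lower with AKBA gel (7.01%) and 1098 were higher (6.45%). DESeq2's Wald test, run as an alternative, called 203 genes lower (1.17% of 17357) and 89 higher (0.513%) at the same adjusted threshold. In the authors' deposited table, 233 genes were lower (0.488% of 47729) and 156 higher (0.327%) at an FDR under 0.05. Of the 9 members 8 had enough counts to be tested, and Stfa2l1 did not. Markers of dermis were abundant in all libraries (summed fibroblast markers 19400 to 25800 CPM with AKBA gel and 18800 to 35300 CPM with control gel) although the labelled tissue is epidermis. Skeletal muscle markers summed to 5110 to 6240 CPM with AKBA gel and 3850 to 7160 CPM with control gel. Markers of the inner root sheath of the hair follicle varied widely within groups (26.7 to 2180 CPM with AKBA gel, 104 to 3110 CPM with control gel). In such bulk samples fewer cells of a type and less RNA per cell cannot be told apart.

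Levels spanned several orders of magnitude between members. Set per length in the deposited FPKM, Stfa3 was highest at 2121 ± 392 FPKM with AKBA gel and 2253 ± 870 FPKM with control gel (SD, n = 3 each). BC100530 came next at 1223 ± 245 FPKM with AKBA gel and 1664 ± 771 FPKM with control gel. The ranges of this pair did not overlap within AKBA gel libraries (1683 to 2439 FPKM for Stfa3, 1025 to 1497 FPKM for BC100530) but did within control gel libraries. Cst3 (324 ± 39.9 against 281 ± 46.9 FPKM), Cstb (241 ± 43.6 against 283 ± 70.3 FPKM), Stfa1 (316 ± 103 against 759 ± 552 FPKM) and Cst6 (261 ± 87.5 against 115 ± 28.3 FPKM, AKBA gel first) formed a middle tier. Their ranges overlapped with AKBA gel. With control gel every Cst6 value lay below every value of the other 3. Stfa2 (67.8 ± 29.5 against 174 ± 117 FPKM) and BC117090 (36.4 ± 5.74 against 81.2 ± 42.8 FPKM) were lower, and Stfa2l1 was at 0 to 1.17 FPKM.

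**Figure D1:**
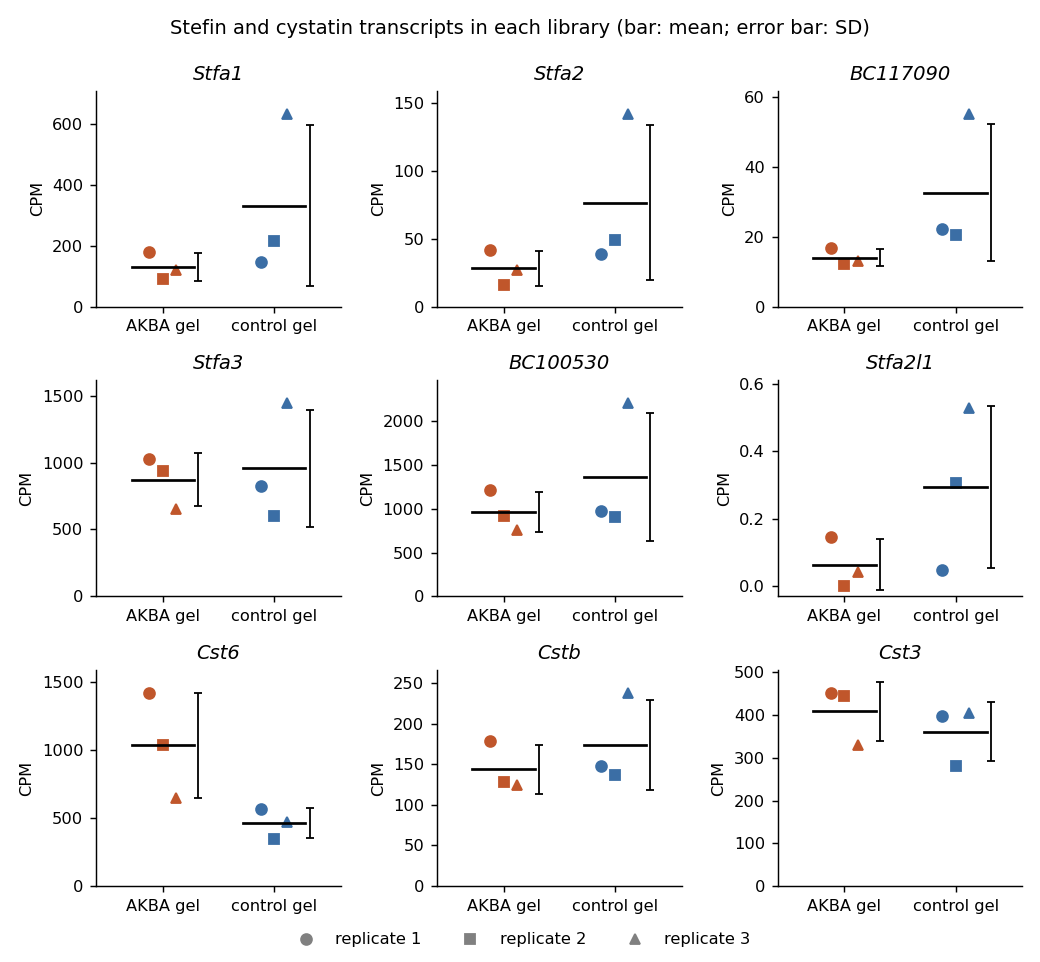
Level of each of the 9 members in each library, in CPM after TMM scaling, with AKBA gel on the left and control gel on the right of each panel; bars are means and error bars SD of 3 libraries. Control replicate 3 is the highest library for all 6 stefin A genes and for Cstb, and the groups stand apart for Cst6 and BC117090 only.

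BC117090, which the deposited annotation describes as a stefin A1-like protein (chromosome 16, 36321665 to 36334332), was the only one of the 6 stefin A members whose groups did not overlap. It was at 16.8, 12.1 and 13.0 CPM in AKBA gel libraries (replicates 1 to 3) and at 22.1, 20.6 and 55.1 CPM in control gel libraries. Every AKBA gel library lay below every control gel library (true of 9.1% of all genes tested), with control replicate 3 far above the rest. Its log2 fold change was -1.22 ± 0.38 (SE), a level 2.33-fold lower with AKBA gel, with an unadjusted edgeR p of 0.0136 and an adjusted p of 0.334. It passed in DESeq2 (adjusted p = 0.0462) and in the authors' deposited table (log2 fold change -1.17, FDR 0.022).

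Stfa2, stefin A2 (36403992 to 36408457), was at 42.0, 16.4 and 27.0 CPM in AKBA gel libraries and at 38.7, 49.5 and 142 CPM in control gel libraries. The groups overlapped through AKBA replicate 1, which lay above control replicate 1. The log2 fold change was -1.43 ± 0.53 (edgeR adjusted p = 0.343). Stfa1, stefin A1 (36276951 to 36285373), showed the same order of libraries, with 180, 91.5 and 121 CPM in AKBA gel libraries and 148, 214 and 633 CPM in control gel libraries. Its log2 fold change was -1.34 ± 0.53 (edgeR adjusted p = 0.353). Stfa2 passed in the authors' deposited table (FDR 0.0418) and Stfa1 did not (FDR 0.0689), and neither passed in DESeq2.

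The most abundant pair had smaller fold changes, and its groups overlapped. Stfa3, stefin A3 (36450537 to 36455392), was at 1028, 935 and 650 CPM in AKBA gel libraries and at 825, 602 and 1441 CPM in control gel libraries. BC100530, described as a stefin A-like protein (36359382 to 36367748), was at 1211, 918 and 759 CPM in AKBA gel libraries and at 972, 906 and 2199 CPM in control gel libraries. For both genes AKBA replicate 1 lay above control replicates 1 and 2. The log2 fold changes were -0.13 ± 0.34 for Stfa3 (edgeR adjusted p = 0.894) and -0.50 ± 0.37 for BC100530 (adjusted p = 0.585). Stfa2l1, a copy close to Stfa2 (36156811 to 36161953), had 3, 0 and 1 counts in AKBA gel libraries and 1, 7 and 11 counts in control gel libraries and was too low to test.

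Control replicate 3 stood above the other control libraries for these genes. Its level was 3.5 times the mean of the other control libraries for Stfa1, 3.22 times for Stfa2, 2.58 times for BC117090, 2.34 times for BC100530 and 2.02 times for Stfa3. Without it the log2 fold changes were -0.61 ± 0.18 for BC117090 (edgeR adjusted p = 0.63), -0.63 ± 0.35 for Stfa2, -0.47 ± 0.30 for Stfa1, 0.04 ± 0.23 for BC100530 and 0.29 ± 0.25 for Stfa3. The same library had the highest sum of the activated keratinocyte markers Krt6a, Krt6b, Krt16 and Krt17, at 30500 CPM. Those sums were 5310, 1530 and 5000 CPM in AKBA gel libraries and 7010, 18500 and 30500 CPM in control gel libraries, and the part of this in the stefin levels was not tested.

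The cluster was also read as a sum and as the share of each member. Summed over the 6 stefin A genes, which sets aside how reads were split among these 6 but not the stretches some of them share with Csta1, Gm4758, Gm15845 and Gm49652, the level was 2478, 1972 and 1570 CPM in AKBA gel libraries and 2006, 1793 and 4471 CPM in control gel libraries. These sums overlapped, since AKBA replicate 1 exceeded control replicates 1 and 2. As shares of the 6 genes' counts, a measure chosen after the values had been seen and given with no test, BC117090 made up 0.677%, 0.614% and 0.83% in AKBA gel libraries and 1.1%, 1.15% and 1.23% in control gel libraries. Stfa2 made up 1.7%, 0.83% and 1.72% with AKBA gel and 1.93%, 2.76% and 3.18% with control gel. Neither of these shares overlapped between the groups, but both rest on how reads shared between copies were split, which is uncertain. Stfa1 made up 7.28%, 4.64% and 7.72% with AKBA gel and 7.36%, 12% and 14.2% with control gel, which overlapped. Stfa3 made up 41.5%, 47.4% and 41.4% with AKBA gel and 41.1%, 33.6% and 32.2% with control gel, and its groups stood apart the other way by a small margin. BC100530 held a near constant 46.5% to 48.8% with AKBA gel and 48.5% to 50.5% with control gel.

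**Figure D2:**
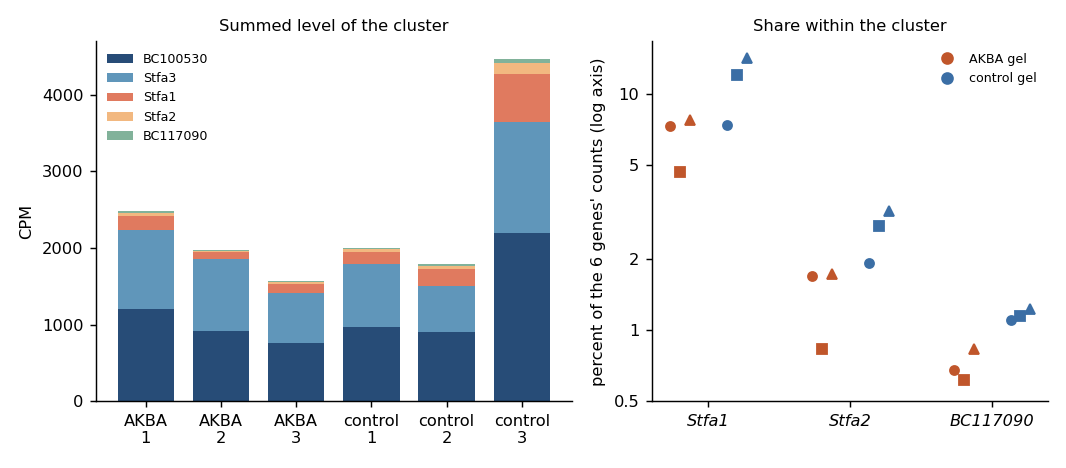
Left, summed CPM of the stefin A cluster in each library, stacked by gene (Stfa2l1, at most 0.527 CPM, is too small to draw); right, share of Stfa1, Stfa2 and BC117090 in the counts of the 6 genes, in percent on a log axis, 1 point per library. The sum is highest in control replicate 3 at 4471 CPM, and the shares of Stfa2 and BC117090 are lower in every AKBA gel library than in every control gel library. How reads shared between copies were assigned is not stated, so the shares are uncertain.

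Other genes of the cluster were read from the same fit. Of the 9 protein-coding genes annotated between the outermost members, Gm5416 and 2010005H15Rik are tested stefin genes outside the chosen set (RefSeq lists them as Csta3 and Csta2). Gm5416 was named after its values had been seen. It had 82, 4 and 117 counts in AKBA gel libraries and 115, 657 and 1576 counts in control gel libraries, with a log2 fold change of -3.55 ± 1.06 (edgeR adjusted p = 0.332). 2010005H15Rik had 8, 3 and 9 counts with AKBA gel and 18, 22 and 69 counts with control gel (-2.41 ± 0.66, edgeR adjusted p = 0.331). It passed in the authors' deposited table (FDR 0.0145). In CPM, every AKBA gel library lay below every control gel library for both genes, as for 9.1% of all genes tested. For Gm5416 this rests on library scaling, since AKBA replicate 3 had 117 counts and control replicate 1 had 115. Csta1, stefin A just outside the members' span, was at 177, 208 and 107 CPM with AKBA gel and at 137, 180 and 414 CPM with control gel, and its groups overlapped (log2 fold change -0.57 ± 0.43). The antisense gene Gm15845 had a log2 fold change of -1.32 ± 0.41 at 27 to 36 counts with AKBA gel and 46 to 128 with control gel.

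**Figure D3:**
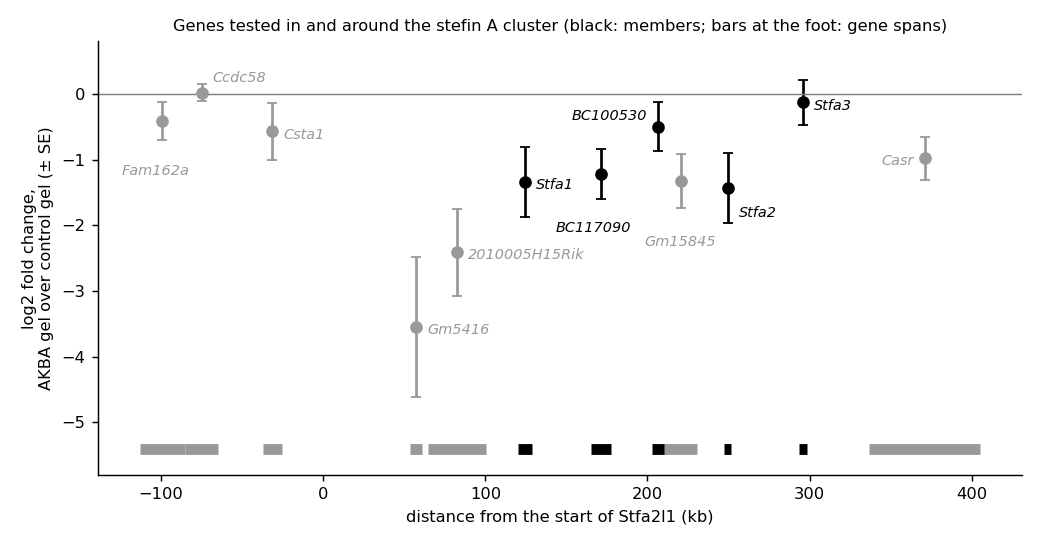
Log2 fold change (AKBA gel over control gel, ± SE) of each tested gene against its distance in kb from the start of Stfa2l1, with gene spans as bars at the foot; members are black and other genes grey. Gm5416 and 2010005H15Rik lie lowest at -3.55 and -2.41, and Stfa3 lies near 0 at -0.13.

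Cst6 was the member whose AKBA gel libraries all lay above the control gel libraries (chromosome 19, 5344705 to 5349574). It encodes cystatin M, the secreted inhibitor of cathepsin L and legumain in the upper epidermis. It was at 1415, 1034 and 648 CPM in AKBA gel libraries and at 564, 344 and 473 CPM in control gel libraries. Every AKBA gel library lay above every control gel library (true of 9.28% of all genes tested), AKBA replicate 3 by the smallest margin. Its log2 fold change was 1.17 ± 0.31 (SE), a 2.24-fold higher level, with an unadjusted edgeR p of 0.00617 and an adjusted p of 0.331. It passed in DESeq2 (1.16 ± 0.29, adjusted p = 0.012) and in the authors' deposited table (1.18, FDR 0.00679). With single libraries left out the log2 fold change ran between 0.87 and 1.42, and without control replicate 3 it was 1.19 ± 0.37.

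The other members had smaller fold changes, and their groups overlapped. Cst3 (chromosome 2, 148871722 to 148875692) encodes cystatin C, a secreted inhibitor made by many cell types. It was at 452, 444 and 330 CPM in AKBA gel libraries and at 397, 281 and 404 CPM in control gel libraries, with control replicate 2 lowest. Its log2 fold change was 0.18 ± 0.20 (edgeR adjusted p = 0.72). Cstb (chromosome 10, 78425669 to 78427622) encodes the widely expressed stefin B, whose loss causes a progressive myoclonus epilepsy in humans. It was at 179, 128 and 124 CPM in AKBA gel libraries and at 147, 136 and 238 CPM in control gel libraries, with control replicate 3 again the highest. Its log2 fold change was -0.27 ± 0.24 (edgeR adjusted p = 0.652).

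Counted over the 8 members tested, 0 passed edgeR's adjusted threshold. At an unadjusted p under 0.05, 3 were lower (Stfa1, Stfa2 and BC117090, against 7.01% of all genes) and 1 was higher (Cst6, against 6.45%). The lower count rests in part on control replicate 3. Without that library the unadjusted edgeR p was 0.161 for Stfa1, 0.119 for Stfa2, 0.0112 for BC117090 and 0.0162 for Cst6. DESeq2 called 1 lower (BC117090, against 1.17%) and 1 higher (Cst6, against 0.513%), and in the authors' deposited table Stfa2 and BC117090 were lower (against 0.488% of all genes and 1.26% of those tested here) and Cst6 was higher (against 0.327% and 0.869%). Groups did not overlap for 1 lower member, against 9.1% of all genes, and for 1 higher member, against 9.28%. The median log2 fold change was -0.39 over the 8 members and -1.22 over the 5 tested stefin A members, beside 0.00 over all genes. Members of the cluster share reads and a locus and are not independent of each other.

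**Figure D4:**
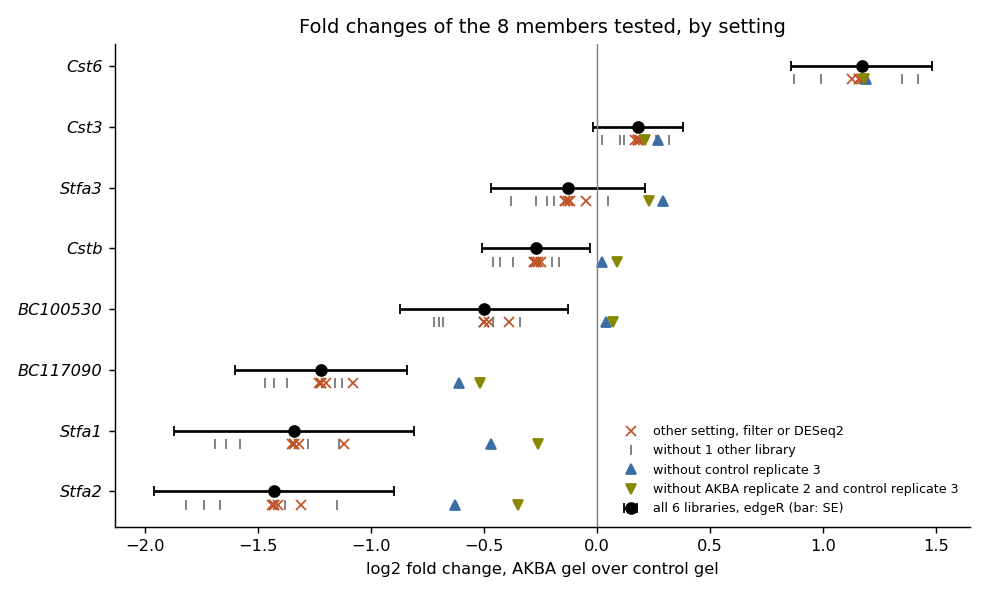
Log2 fold change (AKBA gel over control gel) of the 8 tested members: black points with SE bars are edgeR with all 6 libraries, and the marks under them are the alternatives. Without control replicate 3, Stfa1 is at -0.47 and Stfa2 at -0.63, nearer 0, Stfa3 turns to 0.29, and Cst6 is at 1.19.

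The proteases that stefins and cystatins inhibit were examined as a list of 11 genes. None passed edgeR's adjusted threshold, 2 were lower at an unadjusted p under 0.05 (against 7.01% of all genes) and 0 were higher (against 6.45%), and the median log2 fold change was -0.22, beside 0.00 over all genes. Lgmn, the asparaginyl protease legumain, was at 111, 86.3 and 123 CPM in AKBA gel libraries and at 152, 190 and 199 CPM in control gel libraries. The groups did not overlap, as for 9.1% of all genes tested in this direction (log2 fold change -0.76 ± 0.17, edgeR adjusted p = 0.331). Its FDR in the authors' deposited table was 0.0259. Ctsc, cathepsin C, which activates granule proteases, was at 221, 195 and 268 CPM with AKBA gel and at 310, 302 and 423 CPM with control gel. It did not overlap either (-0.60 ± 0.19, edgeR adjusted p = 0.334, FDR 0.158 in the authors' deposited table). Of the 11 proteases, 4 were lower without overlap (Lgmn, Ctsc, Ctsb and Ctss, against 9.1% of all genes). In the other direction 1 was higher without overlap (Ctsf, against 9.28%). The most abundant member, the lysosomal protease Ctsb, averaged 1020 ± 118 CPM in AKBA gel libraries and 1232 ± 62.9 CPM in control gel libraries (SD, n = 3 each, log2 fold change -0.27 ± 0.16). Ctsl, cathepsin L, was at 568 ± 81.8 against 567 ± 134 CPM (0.00 ± 0.21), and the bone and fibroblast protease Ctsk at 424 ± 41.0 against 473 ± 72.8 CPM (-0.16 ± 0.16). Macrophages are rich in legumain and cathepsins. The 9 macrophage markers summed to 1650 to 1790 CPM with AKBA gel and 1850 to 2540 CPM with control gel, all 9 with a log2 fold change below 0, and their part in the protease values was not tested.

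Ratios of counts within a library do not depend on scaling, and 4 were examined for Cst6. The log2 ratio of Cst6 to its target Lgmn was 3.68, 3.58 and 2.40 in AKBA gel libraries and 1.89, 0.86 and 1.25 in control gel libraries, a difference of 1.89. That of Cst6 to Ctsl was 1.10, 1.05 and 0.25 with AKBA gel and 0.01, -0.34 and -0.58 with control gel, a difference of 1.10. That of Cst6 to BC100530 was 0.23, 0.17 and -0.23 with AKBA gel and -0.79, -1.40 and -2.22 with control gel, a difference of 1.52. In each of these 3 ratios every AKBA gel library lay above every control gel library, which gives the smallest p that 3 against 3 libraries allow (2-sided exact permutation test, p = 0.1, adjusted over the 4 ratios 0.133). All 4 ratios share the numerator Cst6, whose own groups already stood apart in CPM. The 3 ratios therefore restate that difference in part and are not independent results. The ratio of Cst6 to Krt10, the keratin of the suprabasal layers, overlapped, with means of -4.25 ± 0.34 with AKBA gel and -4.42 ± 0.30 with control gel (SD, n = 3 each; difference 0.17, exact permutation p = 0.6).

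**Figure D5:**
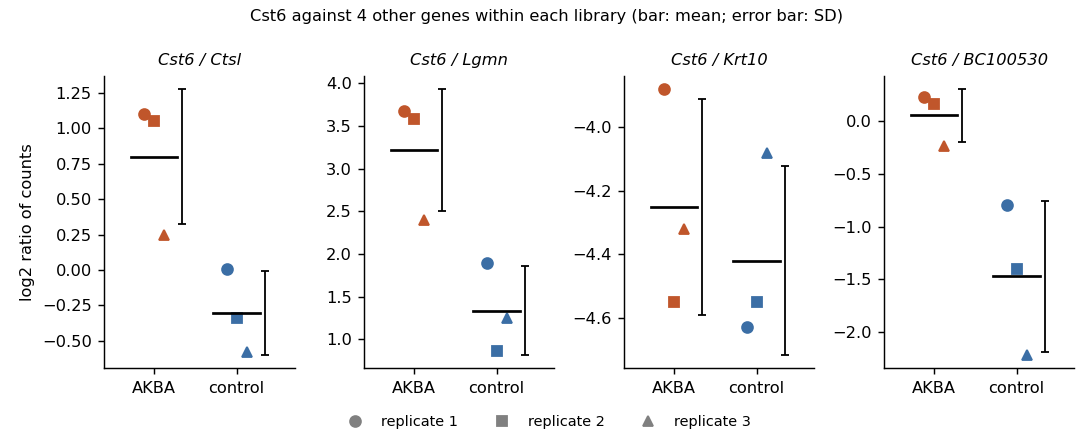
Log2 ratio of Cst6 counts to the counts of Ctsl, Lgmn, Krt10 and BC100530 in each library, AKBA gel left and control gel right, with means (bars) and SD (error bars) of 3 libraries. The groups stand apart for Ctsl, Lgmn and BC100530 and overlap for Krt10, whose difference is 0.17.

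Genes of the cornified envelope, into which this protease network feeds, and enzymes were listed together as 14 genes. They made 20 table entries, since 7 carry the name Flg. The enzymes were Tgm1, Tgm3, Tgm5, Ctsd, Ctse, Casp14 and Asprv1. None of the 20 entries passed edgeR's adjusted threshold. At an unadjusted p under 0.05, 3 entries were higher (against 6.45% of all genes) and 0 lower, and the median log2 fold change was 0.35. With Flg counted once, by its most abundant entry, a count added after the values had been seen, 2 of 14 were higher and the median was 0.12. Flg2, filaggrin 2, was at 403, 631 and 178 CPM in AKBA gel libraries and at 163, 91.2 and 65.9 CPM in control gel libraries (1.92 ± 0.49, edgeR adjusted p = 0.331). Lor, loricrin, the main envelope protein, was at 4362 ± 2320 against 1803 ± 448 CPM (1.27 ± 0.42), and the main Flg entry at 2727 ± 1041 against 1579 ± 437 CPM (0.79 ± 0.34). Rptn, repetin, was at 2962 ± 982 against 4302 ± 1014 CPM (-0.54 ± 0.30), and the filaggrin-processing protease Asprv1 at 3529 ± 956 against 2831 ± 790 CPM (0.32 ± 0.31). In the authors' deposited table Flg2 (FDR 0.000674) and Lor (FDR 0.0182) passed. The main Flg entry (FDR 0.167), Rptn (0.426) and Asprv1 (0.834) did not. Tgm3 was at 192 ± 35.6 against 238 ± 58.1 CPM (-0.31 ± 0.21). The 5 granular keratinocyte markers summed to 10900, 14600 and 6160 CPM in AKBA gel libraries and to 7240, 4230 and 5590 CPM in control gel libraries. AKBA replicate 3 was the lowest AKBA gel library for this sum as it was for Cst6. The highest was AKBA replicate 2 for this sum and AKBA replicate 1 for Cst6. Control gel libraries had the same order for both. The sums overlapped between the groups, whereas Cst6 levels did not. The part of granular cells in the Cst6 level was not tested.

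Of 17 further stefin and cystatin genes 6 had no count in any library and 6 were tested. None passed edgeR's adjusted threshold, 1 was lower at an unadjusted p under 0.05 (2010005H15Rik, against 7.01% of all genes) and 0 were higher, and the median log2 fold change was -0.43. The list does not hold Gm5416, and with it, added after its values had been seen, 2 of 7 tested genes were lower and the median was -0.57. Beside Csta1 these included Fetub, fetuin-B, an inhibitor best known from liver (57.2 ± 12.5 against 44.9 ± 15.4 CPM, 0.35 ± 0.25), and Cst7, the leukocyte cystatin F (1.18 ± 0.715 against 1.46 ± 0.217 CPM, -0.29 ± 0.42). Gm5483 had 0, 0 and 1 counts with AKBA gel and 0, 6 and 16 counts with control gel.

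Since neutrophils also express stefin A genes, 11 neutrophil markers other than stefins were summed. The sums were 26.8 to 40.7 CPM with AKBA gel and 45.0 to 52.7 CPM with control gel, and all 4 tested markers had a log2 fold change below 0. Most of the sum came from receptors, with Cxcr2 at 260 to 502 counts and Csf3r at 188 to 574 counts over the 6 libraries, and from the collagenase Mmp8 at 39 to 106 counts. Csf3r was the tested marker with an unadjusted p under 0.05 (log2 fold change -0.61 ± 0.24, edgeR adjusted p = 0.352). Ly6g, the defining surface marker, had 0 counts in every library. The granule genes Ngp, Mpo, Elane and Ltf had at most 2, 3, 5 and 6 counts in a library. Another granule gene, Camp, had 6 to 24 counts over the 6 libraries, Retnlg 1 to 20 and Cd177 0 to 8. The part of neutrophils in the stefin levels was not tested.

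The genes whose pattern over the 6 libraries was most like that of Stfa2, BC100530 and Cst6 were sought among 4533 other genes with a mean of at least 50 CPM, by Pearson's r of log2 CPM. For Stfa2 these were Pla2g4e, a phospholipase A2 (r = 0.993), the glucose transporter Slc2a1 (0.992), Tceb3 (0.991) and Tor1aip2 (0.989). For BC100530 they included Vps35, a retromer subunit (0.994), Tspo (0.993) and Akr1a1 (0.991). For Cst6 they were Acbd5 (0.995), Pgrmc1 (0.993), the glutathione transferase Gstm1 (0.993) and the motor protein Myo6 (0.992). With 6 libraries, 73 to 78 of the 4533 genes exceeded an r of 0.95 for each member, so the values are given as descriptions. The r takes no account of the size of a change. Tceb3 ran from 70.4 to 89.8 CPM where Stfa2 ran from 16.4 to 142 CPM. Vps35 ran from 152 to 189 CPM where BC100530 ran from 759 to 2199 CPM. Pla2g4e was at 190, 116 and 138 CPM with AKBA gel and at 190, 222 and 463 CPM with control gel, with control replicate 3 highest as for Stfa2, and Myo6 was at 207, 195 and 143 CPM with AKBA gel and at 139, 109 and 126 CPM with control gel.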

How the data were processed

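The authors deposited 1 table with a count and an FPKM value per gene and library, and their own log2 fold change, p-value and FDR per gene (AKBA gel over control gel, per the file headers). The submitters' processing notes name CASAVA 1.8, RSEM, edgeR and GRCm38; their roles, the annotation release and the strandedness of counting are not stated. The counts, whole numbers, were used as deposited. The deposited FPKM served to set levels between genes. The deposited log2 fold changes and p-values are quoted only as the authors' table.

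Groups came from the titles. Fold changes came from edgeR 4.0.16 (R 4.3.3; TMM, default low-count filter, quasi-likelihood F test, 2-sided, Benjamini-Hochberg over 17023 genes, threshold 0.05), with SE as the log2 fold change over the square root of F. The scripts were tested on simulated data. Ratios used counts plus 0.5 and exact permutation (scipy 1.17.1). Within groups no libraries agreed within sampling noise (the chi-square was 30.8 or more times its degrees of freedom). Positions are from GENCODE M21; promoter sequences are RefSeq's on GRCm38.p6, and runs common to them were searched after the windows had been seen. Shared 50-base stretches were counted on both strands in GENCODE M21 transcripts.

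Members and lists were chosen with earlier results of these data known. All members were named; from each list the 4 most abundant genes, any past the adjusted threshold, and any with an unadjusted p under 0.05 and no overlap of groups were named; Tgm3, Gm5416, Gm5483 and Gm15845 were added after their values had been seen. Precision is limited by 3 libraries per group, and floors cover counting error only. Alternatives were DESeq2 1.42.0 (Wald test), its size factors in edgeR, no filter, a minimum of 5 CPM in 3 libraries, a block for replicate number, leaving out each library or 1 pair of libraries, and FPKM plus 0.1 for the ratios. From the genes most like a member, the 4 with the highest r were taken, and 1 of them is not reported here. Gene Ontology and KEGG files were not used.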

Additional observations from a re-analysis of the deposited data

How the results depend on the processing

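Values of Stfa1, Stfa2, BC117090, Cst6 and Cst3 kept their sign in all 12 alternatives run for each. The unadjusted p of the alternative's own test was under 0.05 in 6 of the 12 for Stfa1 and in 8 for Stfa2. For BC117090 and Cst6 it was under 0.05 in all 12. The sign turned for Stfa3 when AKBA replicate 3 (0.05), control replicate 3 (0.29) or the pair of AKBA replicate 2 with control replicate 3 (0.23) was left out. It turned for BC100530 (0.04 and 0.07) and Cstb (0.02 and 0.09) when control replicate 3 or that pair was left out, and the causes were not tested. With 1 library left out the values ran between -0.38 and 0.29 for Stfa3, -0.72 and 0.04 for BC100530, and -0.46 and 0.02 for Cstb. Without the pair BC117090 was at -0.52, Stfa1 at -0.26 and Stfa2 at -0.35. The DESeq2 Wald test called 203 genes lower, 89 higher and 2 members, where edgeR called 0. With 1 library left out, edgeR called 0 to 13 genes lower, 0 to 1 higher and 0 members, with both upper values from leaving out control replicate 1. The difference in the log2 ratio of Cst6 to Krt10 ranged from -0.02 (without AKBA replicate 1) to 0.34 (without control replicate 3) with 1 library left out, and the other 3 ratio differences kept their sign in every alternative.

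The labels do not say whether same-numbered libraries were paired. Their correlations of deviations were 0.07, 0.02 and -0.33. Between libraries of different number the correlations ran from -0.48 to 0.43. The highest was that of AKBA replicate 3 with control replicate 2, and AKBA replicate 1 correlated best with control replicate 3 (0.38). With the replicate block edgeR called 0 genes and 0 members, and Cst6 was at 1.13. The number of libraries, 3 per group, limits which differences could be detected.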
